A study of Homo sapiens with 4 samples.

Results

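The mRNAs of 10 cullin-RING ubiquitin ligase subunits were followed through an immunoprecipitation of RNA bound to RBM39, a splicing factor. The cells were Huh7, an established line from a human hepatocellular carcinoma. They were chosen by name from the rows of the count table: the RING subunits RBX1 and RNF7, the scaffolds CUL1, CUL2, CUL3, CUL4A, CUL4B and CUL5, the adaptor DDB1 and the substrate receptor DCAF15. All 10 were among the 56303 features of the table, and all 10 were among the 19210 features that had at least 10 counts in at least 2 libraries and were compared. The cells carried a plasmid with a short hairpin against RBM39 (shRBM39) or a control hairpin (shControl). Each hairpin had 1 library of RNA recovered with an antibody to RBM39 (IP) and 1 library of input RNA. There were thus 4 libraries with 1 per group. A culture below means the libraries of 1 hairpin, since the labels do not say that IP and input came from the same cells. No control-antibody IP was among them, so recovery that depends on RBM39 cannot be told apart from recovery that does not.

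Cullin-RING ligases are modular enzymes that attach ubiquitin to proteins. A cullin scaffold holds a RING protein at one end, which brings in the ubiquitin-loaded E2 enzyme, and an adaptor with a substrate receptor at the other, and the complex is switched on when the small protein NEDD8 is joined to the cullin. CUL4A and CUL4B use DDB1 as adaptor and DCAF proteins as receptors. DCAF15 is the receptor that aryl sulfonamide drugs such as indisulam glue to RBM39, which is then ubiquitinated and degraded.

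Total counts were 45812488 in the shRBM39 IP, 22249581 in the shRBM39 input, 41387762 in the shControl IP and 20858382 in the shControl input. Levels are TMM-scaled CPM (counts relative to library size), and recovery is the IP level divided by the input level. TMM places the typical feature near equality, so recovery is relative to other features and is not an amount of RNA pulled down. A difference in total IP yield between the cultures is removed by the scaling and cannot be seen. The pairwise values rest on 1 library per group and have no replicate check. The bounds in parentheses are 95% limits that cover counting error alone, and are optimistic where reads are copies of one molecule. A feature was called higher or lower at a log2 ratio of 1 or more in size (2-fold) with limits that excluded equality. All hepatocyte markers on a list of 10 passed the filter, with summed levels of 5452 and 13164 CPM in the shRBM39 IP and input and 9543 and 14100 CPM in the shControl IP and input. Of the markers of other cell types, 2 of 5 for leukocytes, 1 of 3 for endothelium and 2 of 4 for fibroblasts and stellate cells passed the same filter. Those were LYZ (5947 to 12830 counts per library), CD68 (304 to 419), PECAM1 (130 to 203), PDGFRB (30 to 100) and COL3A1 (12 to 56). PTPRC had at most 2 counts in a library, and DCN had 0 counts in all 4. The summed leukocyte level was 167 and 290.1 CPM in the shRBM39 IP and input and 293 and 411 CPM in the shControl IP and input, and the other lists summed to at most 8.68 CPM. The part of these markers in the results was not tested.

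RBM39, the target of the hairpin and of the DCAF15 drugs, had 370 CPM in the input labelled shRBM39 and 403 CPM in the shControl input, a ratio of 0.917. The input RNA thus showed little of the knockdown that the label names, and shRBM39 below means the libraries so labelled. The RBM39 mRNA was recovered at 5.999 times input in shRBM39 cells and 2.57 times in shControl cells. RBM23, its paralog and also a DCAF15 drug target, was recovered at 1.298 times input in shRBM39 cells and 1.27 times in shControl cells.

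The first question was how far each subunit mRNA was recovered with the RBM39 antibody in each culture. In shRBM39 cells 0 of the 10 passed 2-fold in either direction, where 5.29% of all compared features were called higher and 9.00% lower. In shControl cells RBX1 was called higher and RNF7 and CUL5 lower, where 7.70% of all features were called higher and 11.3% lower. The median log2 recovery of the 10 was -0.18 in shRBM39 cells and 0.05 in shControl cells, beside 0.02 and -0.01 over all compared features.

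**Figure D1:**
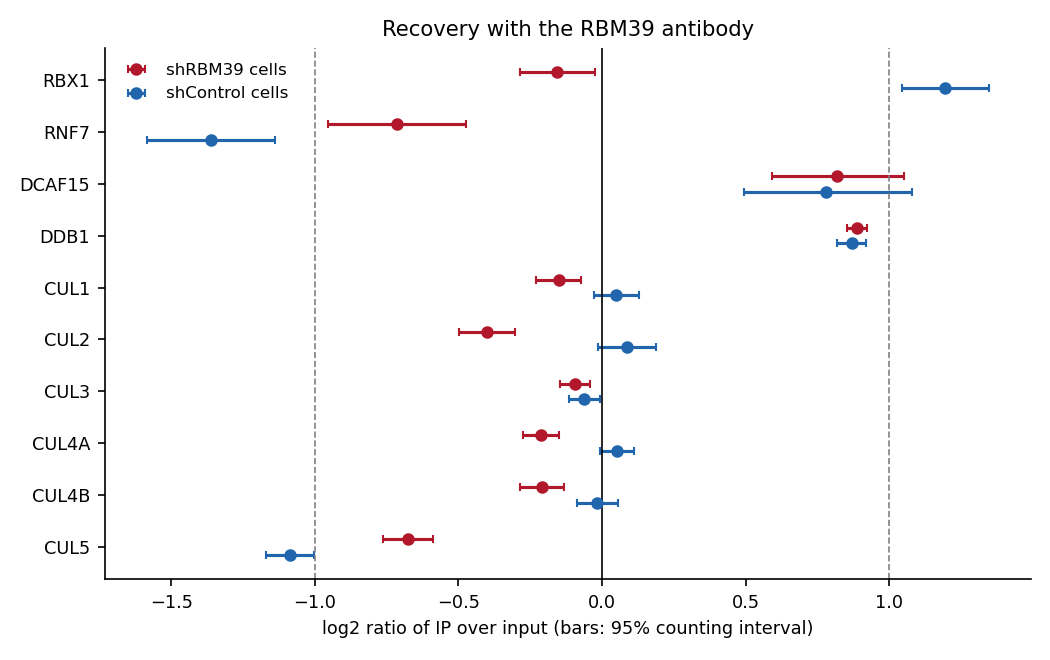
Log2 ratio of IP over input (x axis) for each of the 10 mRNAs (y axis) in shRBM39 cells (red) and shControl cells (blue). Points are single ratios, bars are 95% counting intervals and dashed lines mark 2-fold. RBX1 lies at -0.16 in shRBM39 cells and 1.19 in shControl cells, while DDB1 lies at 0.89 and 0.87.

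RBX1 encodes the RING protein of ligases built on CUL1 to CUL4B. It lies on chromosome 22, 40951378 to 40973309 (GRCh38), plus strand, with no annotated neighbour overlapping it. RBX1 had 1313 counts in the shRBM39 IP and 769 in the shRBM39 input, against 2107 in the shControl IP and 439 in the shControl input. These counts are 31.7 and 35.3 CPM in shRBM39 cells and 46.6 and 20.4 CPM in shControl cells. The shControl IP was the highest of the 4 libraries and the shControl input the lowest, with both shRBM39 libraries between them. The log2 recovery was -0.16 (-0.29 to -0.03) in shRBM39 cells, near input level, and 1.19 (1.05 to 1.35) in shControl cells, 2.29 times input.

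RNF7, also called RBX2 or SAG, is the RING protein that pairs with CUL5. It lies on chromosome 3, 141738298 to 141747560, plus strand. RNF7 had 313 counts in the shRBM39 IP and 270 in the shRBM39 input, against 302 in the shControl IP and 370 in the shControl input. In CPM these were 7.55 and 12.4 in shRBM39 cells and 6.68 and 17.2 in shControl cells. Both IPs were below both inputs. Its log2 recovery was -0.72 (-0.95 to -0.47) in shRBM39 cells and -1.36 (-1.59 to -1.14) in shControl cells.

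CUL5, the scaffold that binds RNF7 (chromosome 11, 108008898 to 108107761, plus strand), was also lower in both IPs. It had 57.1 CPM in the shRBM39 IP and 91.2 in the shRBM39 input, against 52.1 in the shControl IP and 111 in the shControl input. Its log2 recovery was -0.68 (-0.76 to -0.59) in shRBM39 cells and -1.09 (-1.17 to -1.004) in shControl cells. The call in shControl cells was at the threshold and ended at -0.996 when the scaling was computed without the filter on low counts.

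The other 5 scaffolds stayed close to input level. CUL3, the scaffold of BTB-domain receptors such as KEAP1, had 205 CPM in the shRBM39 IP and 218 in the shRBM39 input, against 196 in the shControl IP and 204 in the shControl input. CUL1, the scaffold of the SCF ligases, had 86.4 and 95.9 CPM in the shRBM39 IP and input and 90.3 and 87.2 CPM in the shControl IP and input. For both genes all 4 libraries lay within a narrow range. CUL2, the scaffold of the VHL ligase, had 51.5 and 67.9 CPM in the shRBM39 IP and input and 57.6 and 54.2 CPM in the shControl IP and input, so its shRBM39 input was the highest of the 4. Its log2 recovery was -0.40 (-0.50 to -0.30) in shRBM39 cells and 0.09 (-0.01 to 0.19) in shControl cells.

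CUL4A and CUL4B are the paralogous scaffolds that carry DDB1 and, through it, DCAF15. CUL4A had 132 CPM in the shRBM39 IP and 153 in the shRBM39 input, against 161 in the shControl IP and 155 in the shControl input. CUL4B had 85.6 CPM in the shRBM39 IP and 98.9 in the shRBM39 input, against 104 in the shControl IP and 105 in the shControl input. For both genes the shRBM39 IP was the lowest library. The log2 recovery in shRBM39 cells was -0.21 for both, and in shControl cells it was 0.05 for CUL4A and -0.02 for CUL4B. The start of CUL4A shares 477 bases with PCID2 on the opposite strand and that of CUL2 shares 161 bases with CREM, and since no strand setting is given, reads in those stretches could count for either gene.

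DDB1 and DCAF15 lay above input in the IPs of both cultures, though below 2-fold. DDB1 (chromosome 11, 61299451 to 61333105, minus strand) had 29335 counts in the shRBM39 IP and 8329 in the shRBM39 input, against 15226 in the shControl IP and 3975 in the shControl input. That is 708 and 383 CPM in shRBM39 cells and 337 and 184 CPM in shControl cells. Within each culture the IP was above the input, and both shRBM39 libraries were above their shControl counterparts. Its log2 recovery was 0.89 (0.85 to 0.92) in shRBM39 cells and 0.87 (0.82 to 0.92) in shControl cells. In shRBM39 cells it reached 1.01 and was called when the scaling was computed without the filter on low counts.

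DCAF15 (chromosome 19, 13952509 to 13961449, plus strand) was the member with the fewest counts in the inputs. It had 692 counts in the shRBM39 IP and 206 in the shRBM39 input, against 458 in the shControl IP and 127 in the shControl input, which is 16.7 and 9.46 CPM in shRBM39 cells and 10.1 and 5.89 CPM in shControl cells. As for DDB1, within each culture the IP was above the input, with the shRBM39 IP highest and the shControl input lowest. Its log2 recovery was 0.82 (0.59 to 1.05) in shRBM39 cells and 0.78 (0.50 to 1.08) in shControl cells. PODNL1 shares 875 bases with the start of DCAF15 on the opposite strand but had 2 to 4 counts per library. The end of DCAF15 lies 80 bases from the end of RFX1, the transcription factor gene of the series title, which is on the opposite strand. RFX1 was recovered at log2 1.59 in shRBM39 cells and 1.11 in shControl cells, and its log2 input ratio, shRBM39 over shControl, was -0.36 (-0.90 to 0.17) on 55 and 70 counts.

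**Figure D2:**
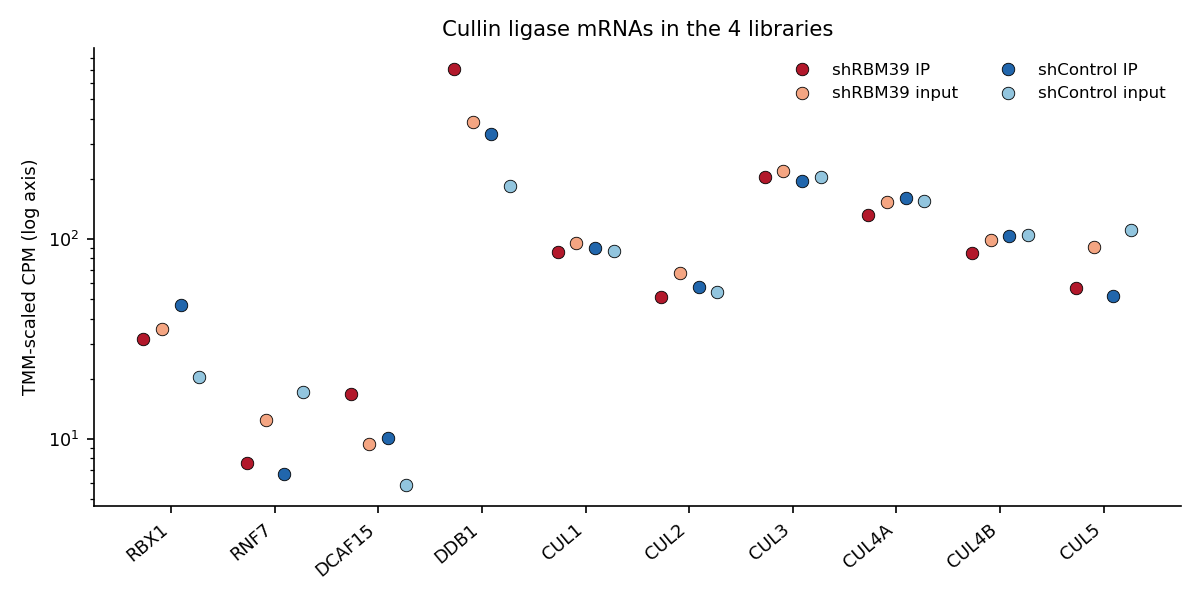
TMM-scaled CPM (log axis) of the 10 mRNAs in the 4 libraries, 1 point per library: shRBM39 IP (dark red), shRBM39 input (light red), shControl IP (dark blue) and shControl input (light blue). Levels may be read across libraries within a gene but not between genes, since they are not divided by transcript length. DDB1 and DCAF15 are highest in the shRBM39 IP, and RBX1 is highest in the shControl IP.

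With the 2 cultures as the only repeats, IP and input were also tested by edgeR's quasi-likelihood test with culture as an additive term, which leaves 1 residual degree of freedom and counts any true difference between the cultures as error. Of all compared features 19.3% were higher and 17.6% lower at an adjusted p under 0.05. Of the 10 members 2 were higher, DDB1 (log2 0.88, adjusted p = 0.000847) and DCAF15 (log2 0.80, adjusted p = 0.00166). RNF7 (log2 -1.04, adjusted p = 0.000306) and CUL5 (log2 -0.88, adjusted p = 0.000218) were the 2 lower members. RBX1 did not pass in edgeR (log2 0.51, adjusted p = 0.0676). In the same edgeR test it passed with DESeq2 size factors (adjusted p = 0.0280) and without the filter on low counts (adjusted p = 0.00153). It did not pass there with total counts (adjusted p = 0.125) or at least 50 counts in 2 libraries (adjusted p = 0.0597). Nor did it pass in the DESeq2 Wald test (adjusted p = 0.164). CUL1, CUL2, CUL3, CUL4A and CUL4B had log2 values of -0.16 to -0.05 and edgeR adjusted p from 0.457 to 0.823.

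The next comparison set recovery in shRBM39 cells against recovery in shControl cells, as the difference of the log2 ratios. RBX1 was the member called, at -1.35 (-1.55 to -1.15), a recovery 0.392 times that of shControl cells, where 4.39% of all features were called higher and 2.74% lower. Of the 14483 features with at least 200 summed counts, 45 had a lower difference. RNF7 (0.65, 0.32 to 0.97) and CUL5 (0.41, 0.29 to 0.53) stood on the other side. The difference was -0.49 (-0.63 to -0.35) for CUL2 and -0.27 to -0.03 for CUL1, CUL3, CUL4A and CUL4B. It was 0.02 (-0.04 to 0.08) for DDB1 and 0.04 (-0.32 to 0.40) for DCAF15, so a difference for DCAF15 was not detectable at this depth. Scaling to total counts shifts every value of this comparison by -0.19 and turns DDB1 to -0.17 (-0.24 to -0.11) and DCAF15 to -0.15. It also turns the split of all features, 843 higher and 526 lower, to 570 and 887.

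A recovery ratio also moves with its input, and both parts contributed for RBX1. Its IP level in shRBM39 cells was 0.680 times that in shControl cells (log2 -0.56, -0.66 to -0.46), and its input level was 1.73 times (log2 0.79, 0.62 to 0.97). For RNF7 the IPs differed by log2 0.18 (-0.05 to 0.41) and the inputs by -0.47 (-0.70 to -0.24). For DDB1 the IP was 2.10 times higher and the input 2.08 times higher in shRBM39 cells, and for DCAF15 the factors were 1.65 and 1.60. These 2 mRNAs were thus more abundant in both shRBM39 libraries. With the scaling used, their log2 recoveries differed by 0.02 for DDB1 and 0.04 for DCAF15, the latter with wide limits (-0.32 to 0.40). With total counts the difference for DDB1 was -0.17 (-0.24 to -0.11).

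**Figure D3:**
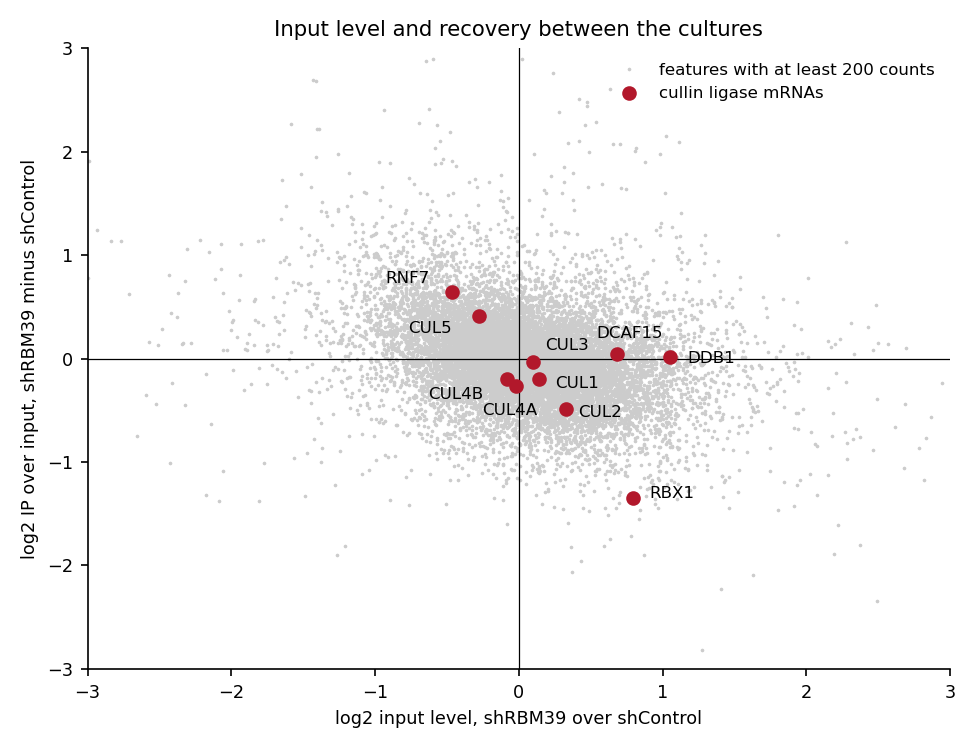
Log2 input level, shRBM39 over shControl (x axis), against the difference of log2 IP over input, shRBM39 minus shControl (y axis). Grey points are features with at least 200 summed counts, of which 14467 lie within the axes and 16 outside, and red points are the 10 mRNAs. The axes share the 2 input libraries and are not independent. RBX1 lies at 0.79 and -1.35, while DDB1 lies at 1.05 and 0.02.

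Between the inputs, DDB1 was the member called, at log2 1.05 (0.999 to 1.11), where 5.10% of all features were called higher and 5.74% lower. The call ended at 0.97 when libraries were scaled to total counts. RBX1 (0.79) and DCAF15 (0.68, 0.36 to 1.01) were next in size, RNF7 and CUL5 (-0.28, -0.36 to -0.19) were lower in shRBM39 cells, and the other 5 cullins ranged from -0.08 for CUL4B to 0.32 for CUL2. The median of the 10 was 0.12, beside -0.01 over all compared features. The 3 members with the highest ratio between the inputs are shown by the 250 bases before their RefSeq start on GRCh38.p14, read 5′ to 3′ on the strand of the gene. Capitals mark matches, on either strand, to the E-box CACGTG, the CCAAT box CCAAT, the ETS core CCGGAAG and the GC box GGGCGG.
RBX1, chr22:40951128-40951377, plus strand: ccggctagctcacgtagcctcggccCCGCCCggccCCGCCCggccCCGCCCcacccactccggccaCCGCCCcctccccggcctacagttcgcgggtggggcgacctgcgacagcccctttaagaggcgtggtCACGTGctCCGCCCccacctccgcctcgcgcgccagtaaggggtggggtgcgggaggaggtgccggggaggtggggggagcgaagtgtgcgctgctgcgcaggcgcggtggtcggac
DDB1, chr11:61333106-61333355, minus strand: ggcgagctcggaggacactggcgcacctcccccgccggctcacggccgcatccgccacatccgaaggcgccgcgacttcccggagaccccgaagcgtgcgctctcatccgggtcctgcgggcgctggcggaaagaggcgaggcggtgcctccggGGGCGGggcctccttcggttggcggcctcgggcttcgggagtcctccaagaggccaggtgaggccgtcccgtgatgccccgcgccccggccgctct
DCAF15, chr19:13952259-13952508, plus strand: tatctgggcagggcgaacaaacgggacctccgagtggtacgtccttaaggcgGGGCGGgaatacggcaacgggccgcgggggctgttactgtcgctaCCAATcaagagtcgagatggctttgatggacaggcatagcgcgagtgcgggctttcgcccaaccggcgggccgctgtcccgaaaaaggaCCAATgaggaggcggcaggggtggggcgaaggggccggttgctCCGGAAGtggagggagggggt

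All 3 windows are rich in G and C, at 76.8% for RBX1, 75.2% for DDB1 and 64.8% for DCAF15, where the median over 27305 RefSeq promoters was 58.0%. The GC box was found in all 3, with 5 matches before RBX1 and 1 each before DDB1 and DCAF15. It occurred in 42.3% of all promoters and in 6 of the 10 members. RBX1 alone of the members held the E-box, 117 bases before its start, which 6.49% of all promoters hold. DCAF15 held 2 CCAAT boxes, found in 33.0% of all promoters, and an ETS core, found in 8.82%. The matches are letters in a window and not measured binding sites. The DDB1 window also covers the start of TKFC, a gene on the opposite strand with 122 bases between it and DDB1.

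Ratios of raw counts between 2 members within a library do not depend on library scaling. The ratio of RBX1 to RNF7 was 4.19 (3.71 to 4.76) in the shRBM39 IP and 2.85 (2.48 to 3.28) in the shRBM39 input, against 6.98 (6.18 to 7.90) in the shControl IP and 1.19 (1.03 to 1.37) in the shControl input. The 4 intervals did not overlap, so the balance of the 2 RING mRNAs differed between all 4 libraries by more than counting error. The paralogs CUL4A and CUL4B kept a ratio of 1.54 in the shRBM39 IP, 1.54 in the shRBM39 input, 1.55 in the shControl IP and 1.48 in the shControl input, with overlapping intervals. RNF7 over CUL5, the RING and scaffold that work together, was 0.132 and 0.136 in the shRBM39 IP and input and 0.128 and 0.155 in the shControl IP and input. These intervals also overlapped, the nearest to a gap being 0.113 to 0.145 in the shControl IP and 0.139 to 0.173 in the shControl input. Overlap of such intervals does not show that the ratios were equal, and the ratios were not compared directly. DCAF15 over DDB1 was 0.0236 and 0.0247 in the shRBM39 IP and input and 0.0301 and 0.0319 in the shControl IP and input. The intervals of the shRBM39 and shControl IPs did not overlap (0.0218 to 0.0254 and 0.0274 to 0.0330). Those of the shRBM39 and shControl inputs did (0.0214 to 0.0284 and 0.0266 to 0.0381). DDB1 over CUL4A, the adaptor over its scaffold, was 5.37 and 2.505 in the shRBM39 IP and input and 2.09 and 1.19 in the shControl IP and input, with intervals that did not overlap.

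**Figure D4:**
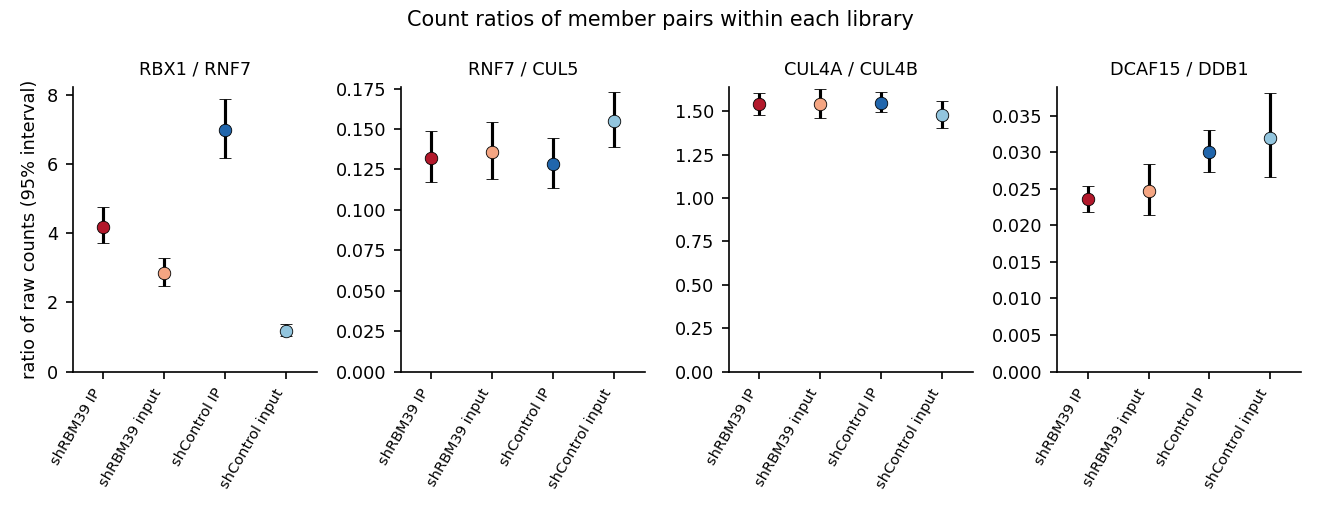
Ratio of raw counts of 2 mRNAs within each of the 4 libraries (x axis), with 95% counting intervals, on axes that start at 0 and differ between panels. RBX1 over RNF7 ranges from 1.19 to 6.98, whereas CUL4A over CUL4B stays between 1.48 and 1.55.

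The other genes of the pathway were taken from 6 lists with 115 compared members. In shRBM39 cells 2 were called higher in the IP and 3 lower, and in shControl cells 10 higher and 6 lower. Between recoveries 1 was called higher and 0 lower, and between inputs 4 higher and 0 lower. By edgeR over both cultures 30 were higher and 24 lower. The shares of all features called are those given above.

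Of 26 other genes listed as DDB1 receptors and partners, AMBRA1, which controls cyclin D turnover, was called in both cultures. It stood at log2 1.01 in shRBM39 and 1.004 in shControl cells, both at the threshold. Total counts shift values in shRBM39 cells by -0.11, which ends the call there. The scaling with at least 50 counts in 2 libraries shifts values in shControl cells by -0.04, which ends the other call. DCAF4 was called in shControl cells (1.07, with 0.64 in shRBM39 cells). WDR5B was lower there (-1.34, with -0.06 in shRBM39 cells) and was the only member of the 6 lists called in the difference of recoveries, at 1.28 (0.64 to 1.91) on 54 to 99 counts per library. CRBN, the receptor of thalidomide drugs, and DDA1, a small DDB1 partner that also binds DCAF15, were named after their values were seen. CRBN stood at -0.22 in shRBM39 cells and -0.21 in shControl cells, and DDA1 at 0.24 and -0.02.

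Among 11 neddylation enzymes 0 were called in the 4 pairwise comparisons, where 2.74% to 11.3% of all features were called in a given direction. By edgeR 4 were lower and 0 higher, where 17.6% of all features were lower and 19.3% higher. Among 13 COP9 signalosome subunits, which remove NEDD8, and exchange factors, COPS6 was called in shControl cells (1.04, with 0.57 in shRBM39 cells). The list had 11 of 13 differences between recoveries below 0, with a median of -0.33, beside -0.0043 over all features. Total-count scaling lowers these values further. Of 5 cullin-fold ligases and partners, all 5 lay above input in shRBM39 cells and 4 in shControl cells, and 4 were higher by edgeR. ANAPC2, the cullin-like subunit of the anaphase-promoting complex, was called in shControl cells (1.21, with 0.69 in shRBM39 cells). CUL7 was 2.36 times higher in shRBM39 input than in shControl input (29.5 and 12.5 CPM, log2 1.24).

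The 50 adaptors of the other cullins went in both directions. In shRBM39 cells 1 was called higher and 2 lower, where 5.29% and 9.00% of all features were. In shControl cells 6 were called higher and 4 lower, where 7.70% and 11.3% of all features were. KCTD17, a CUL3 adaptor, was called in both cultures (1.02 in shRBM39 and 1.56 in shControl cells). Its call in shRBM39 cells was at the threshold and ends with total counts, which shift values there by -0.11. ZER1 (1.42), KLHL21 (1.21) and SOCS3 (1.25) were called in shControl cells, with 0.91, 0.71 and 0.51 in shRBM39 cells. The other 2 higher calls in shControl cells were SPSB3 (1.003) and SOCS2 (1.82 on 18 and 2 counts), and the lower ones besides ZYG11B were TCEB1, elongin C (-1.17), FBXW7, the SCF receptor of cyclin E and MYC (-1.12), and FBXW11 (-1.09). ZER1 and ZYG11B are paralogous CUL2 receptors, and ZYG11B lay on the other side at -1.16 in both cultures. PCMTD1 was lower in shRBM39 cells (-1.21, with -0.80 in shControl cells). SOCS3 was higher in shRBM39 input by 2.18 on 84 and 18 counts, and KLHL13, a CUL3 adaptor, by 1.19. UBE2D4, an E2 enzyme, was lower in both IPs (-1.06 in shRBM39 and -1.12 in shControl cells). A set of 17 listed genes whose products can work with CUL5 and RNF7 was put together after these values were seen. It may not be complete, and its genes went in both directions. In shRBM39 cells 7 lay above input and 10 below, and in shControl cells 8 above and 9 below, with medians of -0.26 and -0.10. UBE2F, the NEDD8 E2 enzyme that works with RNF7, stood at -0.37 in shRBM39 and -0.66 in shControl cells. TCEB1 stood at -0.62 and -1.17, and TCEB2, elongin B, at 0.0091 and 0.00079. ASB6, a SOCS-box receptor, stood at 0.59 and 0.88.

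**Figure D5:**
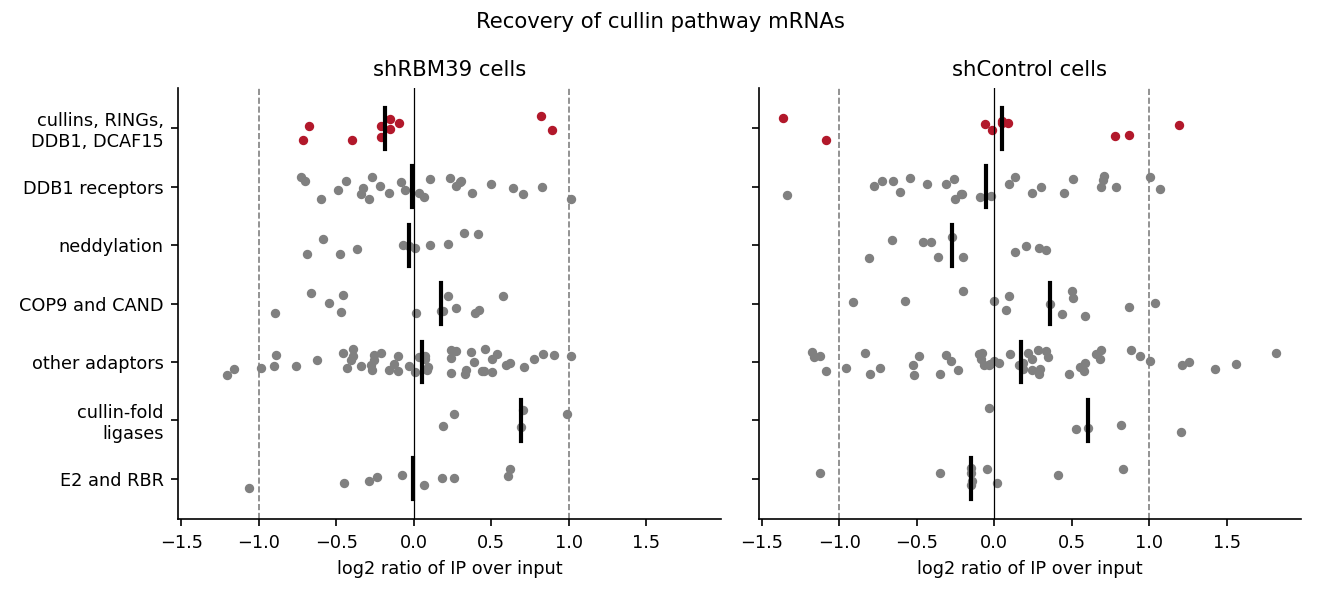
Log2 ratio of IP over input (x axis) in shRBM39 cells (left) and shControl cells (right) for the 10 mRNAs (red) and the members of 6 pathway lists (grey), 1 point per gene with vertical jitter. Black bars are medians and dashed lines mark 2-fold. The medians of the 10 are -0.18 and 0.05.

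The features most like RBX1 and DCAF15 were found by the Euclidean distance of log2 CPM over the 4 libraries, each centred on its mean, among features with at least 200 summed counts. Nearest to RBX1 were BAK1, a pro-apoptotic BCL2 family gene (distance 0.129), AL109927.1 (0.146), LARS2, the mitochondrial leucyl-tRNA synthetase (0.148), RP11-352G18.2 (0.170) and RP5-894A10.2 (0.196), where the median feature was 1.02 away. LARS2 had 29.5 and 32.0 CPM in the shRBM39 IP and input and 40.5 and 16.6 CPM in the shControl IP and input. Nearest to DCAF15 were MED26, a Mediator subunit (0.0311), ARID1A, a SWI/SNF subunit (0.0402), KANK2 (0.0756), KDM6B, a histone demethylase (0.0794), and CLIP2 (0.0816), with a median of 1.15. MED26 had 27.7 and 15.9 CPM in the shRBM39 IP and input and 16.5 and 9.74 CPM in the shControl IP and input. With 4 libraries such likeness is a description only.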

How the data were processed

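RNA immunoprecipitates and inputs from Huh7 cells with shRBM39 or shControl were compared. The authors deposited raw counts per gene symbol, not normalized. The submitters' processing notes name the build hg38 and the tools HISAT2 2.0.4, StringTie 1.3.4d and cutadapt 1.9, with no role for any. The sources used here do not give the counter, the strandedness or the annotation. Of the deposited counts from 3 to 6, 71.4% to 75.6% were even, so mates of a pair may have been counted singly and the intervals are then too narrow. A total of 13 features with numbers in place of names (0.0205% to 0.0335% of counts) were kept.

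After a filter of 10 counts in 2 or more libraries, features were scaled by TMM (edgeR 4.0.16, R 4.3.3). Log2 ratios used 0.5 added to each count and exact conditional (Clopper-Pearson) 95% intervals, and the difference of log2 ratios used its counting standard error. IP and input were tested over both cultures by edgeR's quasi-likelihood test with Benjamini-Hochberg adjustment over 19210 features, and DESeq2 1.42.0 was the alternative. Both steps were tested on simulated data. Those data held no difference between cultures and no mates counted singly, so they cannot speak to either. Alternatives were other scalings, filters, added counts, counts divided by 2 and a 1.5-fold threshold.

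The members and lists were chosen with earlier results of these data known. Named were all members, RBM39 and RBM23, up to 4 called genes of each list and comparison by size with at least 200 summed counts, overlapping features, and the 5 features nearest to RBX1 and to DCAF15. CRBN, DDA1, UBE2F, TCEB1, TCEB2, FBXW7, FBXW11, SOCS2, SPSB3, ASB6 and the cell type markers fall outside that rule. RFX1 was named as the neighbour of DCAF15 and TKFC as that of DDB1. The comparisons share libraries. Positions and promoter sequences are RefSeq's on GRCh38.p14, where all 10 members matched by symbol. Transcript lengths were not used, so levels are not compared between genes.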

Additional observations from a re-analysis of the deposited data

Results flagged for a closer look

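With the scaling, filter and counts used in the report, RBX1 was the member with recovery on opposite sides of input level in the 2 cultures. Both counting intervals were clear of equality, at log2 -0.16 in shRBM39 cells and 1.19 in shControl cells, a difference of -1.35. With 1 library in each group the difference was not tested against replicate spread. The side of input level in shRBM39 cells was not settled, since the interval included equality without the filter on low counts (-0.17 to 0.09) and with counts divided by 2 (-0.34 to 0.03). That value ranged from -0.27 to -0.04 over the alternatives, while the value in shControl cells ranged from 1.16 to 1.28. Other members met the same description under other scalings. These were CUL1, CUL2 and CUL4A with total counts, and CUL4A with DESeq2 size factors. When the scaling was computed without the filter on low counts, they were CUL2, CUL4A and CUL4B.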

How the results depend on the processing

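Over 9 alternative settings, of which the original TMM factors with no filter was chosen after seeing the data, 8 of 360 pairwise values of the members changed sign, all of them of CUL3, CUL4B, DDB1 and DCAF15 and none of them called, and at the 2-fold threshold 3 calls changed. RBX1's difference of recoveries stayed called, from -1.54 to -1.32. Without the filter on low counts 1 member was called higher in shRBM39 cells (0 in the original setting) and 1 lower in shControl cells (2). With total counts 0 members were called higher between inputs (1). At 1.5-fold, 2 members were higher and 2 lower in shRBM39 cells, 3 higher in shControl cells, 1 higher in the difference and 3 higher between inputs. Features called in either direction numbered 2745 in shRBM39 cells, 3652 in shControl cells, 1369 for the difference and 2081 between inputs. At 1.5-fold they were 6327, 7583, 2839 and 4735, and with at least 50 counts in 2 libraries, which leaves fewer features, 1638, 2256, 564 and 1060. The difference had 695 with counts divided by 2. Total counts moved the split in shRBM39 cells to 718 higher and 2164 lower, from 1016 and 1729. IP against input over both cultures gave 7079 features by edgeR and 4695 by DESeq2, with 4 members called by each. Without the filter the edgeR split was 4628 and 2797, from 3698 and 3381. Leaving out a library leaves no residual degrees of freedom, so the values per culture stand in its place. The test over both cultures already sets each IP against the input with the same hairpin label. The labels carry no replicate numbers, so no further block was fitted. The causes of these changes were not tested beyond what each setting does by construction. Depth limits DCAF15 most, with 127 counts in the shControl input.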
